A study of Homo sapiens with 20 samples.

Results

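The region of MYC and PVT1 was described here in chromatin loop lists of 4 human glioblastoma (GBM) cell lines. It was taken as hg19 chromosome 8 from 128 to 130.5 Mb, and its members are the listed pairs of 5 kb anchors with either anchor in that interval. There were 526 such pairs among 572000 pairs listed in any of 4 lists. A pair was assigned to MYC or PVT1 when an anchor lay within 3 kb of a transcript start of the gene in GENCODE release 44 on hg19. This gave 311 pairs at MYC, 150 at PVT1 and 71 at both, and left 136 at neither. H4 and 42MGBA are GBM lines that carry endogenous truncating STAG2 mutations (STAG2-mutant). Gene editing restored STAG2 in their derivatives (STAG2-WT), which are named H4 88-1 for the first line and 42MGBA 53-1 for the other. With 1 corrected derivative per parental line, the effect of the correction and any other difference of that derivative cannot be told apart. All 4 were grown in the same serum-containing medium. Their Hi-C data had been pooled by the authors over 2 biological replicates into 1 list of 300000 anchor pairs per line, so that no spread between replicates, no read depth and no test can be given for any value below. Expression of MYC, PVT1 and of markers of the cell type was not analysed here.

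MYC encodes a transcription factor of the helix-loop-helix leucine zipper class that drives growth and proliferation, and it is one of the most frequently activated oncogenes in cancer. PVT1, its downstream neighbor, makes long noncoding RNAs and is often gained together with MYC. The gene-poor sequence around both genes is known for enhancers that contact the MYC promoter over long distances, in a way that differs between tissues. Cohesin, the ring complex that contains either STAG1 or STAG2, forms loops by extruding chromatin. CCDC26, further downstream, is a long noncoding RNA gene at a locus known for inherited glioma risk. Upstream lie PCAT1, CASC19, CASC8, CCAT2 and PRNCR1, noncoding genes studied for their links to prostate or colon cancer, and POU5F1B, a retrogene of the pluripotency factor OCT4.

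MYC (ENSG00000136997.22_19) occupies 128747680 to 128755197 of chromosome 8 on the plus strand, and PVT1 (ENSG00000249859.14_10) on the same strand occupies 128806772 to 129199347, with first start sites 59.1 kb apart. MYC has 14 annotated start sites, all within 1 anchor from 128747191 to 128752164, and the anchors on both sides of it fell within 3 kb as well. CASC11, a noncoding gene on the opposite strand, starts in the same anchor as MYC, so that the loops of these promoters could not be separated. PVT1 has 132 annotated start sites spread from 128806772 to 129132515. None of the 526 pairs had an anchor within 3 kb of the first PVT1 start, in any list. Every PVT1 pair was therefore assigned by a start inside the gene body, and PVT1 pairs below are pairs of the gene body and not of its 5′ promoter. The anchor just outside the distance limit upstream of MYC, from 128737527 to 128742460, held 25 pairs, against 89 for the neighboring anchor inside it.

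The number of listed pairs in the region was 110 in H4 and 149 in H4 88-1, against 411 in 42MGBA and 332 in 42MGBA 53-1. Both lines of the 42MGBA system had more pairs than both lines of the H4 system. The ratio was 3.74-fold between the STAG2-mutant lines and 2.23-fold between the STAG2-corrected lines, whereas over all of chromosome 8 it was 1.18-fold and 0.982-fold. Over 2.5 Mb tiles of the genome with at least 20 pairs in some list, 9.64% of 996 tiles had at least 2-fold more pairs in both 42MGBA lists than in both H4 lists, and 16.7% had the reverse. The 2-fold limit was chosen after the counts of the region were seen. Over all 1079 tiles with a pair in any list, the median tile had 214 pairs in H4 and 209 in H4 88-1, more than the region. It had 198 in 42MGBA and 176 in 42MGBA 53-1, fewer than the region. Tiles with more pairs than the region made up 66.3% in H4 and 58.2% in H4 88-1. In 42MGBA they made up 25.5%, and in 42MGBA 53-1 they made up 31.1%.

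Of the 526 pairs, 40 were listed in all 4 lines, 34 of them at MYC. Another 99 were listed in both 42MGBA lists and in neither H4 list, and 5 the other way. There were 17 listed in both STAG2-mutant lines and in neither corrected line, all 17 at MYC, and 8 in both corrected lines alone. How many of all listed pairs show these patterns was not counted, so that these numbers describe the region only. Of the H4 pairs, 94.5% were also listed in 42MGBA, but these made up 25.3% of the 42MGBA pairs. Over the genome, 52.8% of either list was shared between these lines. Many pairs are neighbors of one another, and joining pairs whose anchors both lay within 10 kb left 18 groups, which are drawn in the arc plot.

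**Figure D1:**
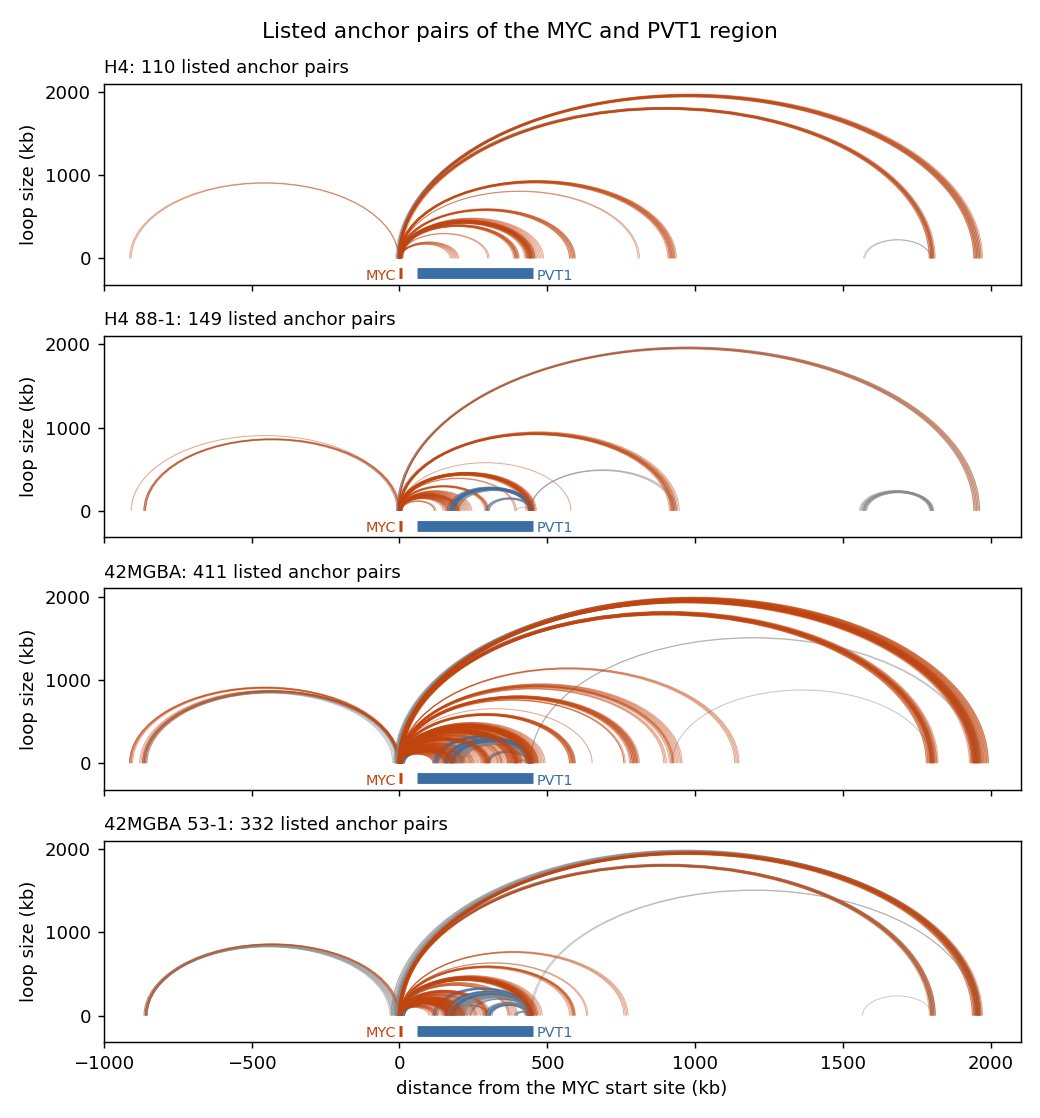
Arcs join the anchors of each listed pair of the region in each cell line, plotted as distance from the MYC start site (kb), with arc height as loop size (kb) and line width rising with loop strength. Orange arcs are pairs at MYC, blue arcs pairs at PVT1 but not MYC and grey arcs the rest, and 10 of the 18 groups contain orange arcs, with far ends up to 1994 kb downstream and 914 kb upstream.

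Most pairs of the region were at MYC, 311 of 526. The lists held 95 MYC pairs in H4 and 87 in H4 88-1, against 284 in 42MGBA and 171 in 42MGBA 53-1. The order of the lines at MYC differed from that over the region, in which H4 had fewer pairs than H4 88-1. Among 20176 protein-coding genes, 295 had more listed promoter pairs than MYC in H4 and 355 in H4 88-1, against 25 in 42MGBA and 95 in 42MGBA 53-1. Genes with any pair had a median of 12 in each list. Nearly all far ends lay downstream of MYC, 93 of 95 in H4 and 82 of 87 in H4 88-1, against 270 of 284 in 42MGBA and 166 of 171 in 42MGBA 53-1.

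The strongest pair of the region was the same in all 4 lines. It joined the MYC start anchor with an anchor from 129187886 to 129192885, at the 3′ end of PVT1, 441 kb away. Its strength, the bias-corrected and enhanced contact signal, was 9.24 in H4 and 9.72 in H4 88-1, against 11.9 in 42MGBA and 11.2 in 42MGBA 53-1. By strength it was number 17676 of 300000 in H4 and 17414 in H4 88-1, against 7319 in 42MGBA and 6153 in 42MGBA 53-1. The log2 ratio of its strength in corrected over mutant cells was 0.072 for the H4 pair and -0.087 for the 42MGBA pair, near the medians of all merged loops, 0.074 and -0.11.

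Far ends of the MYC pairs fell into a limited number of 100 kb windows, plotted by distance from the gene. The window from 129100000 to 129200000, which holds the 3′ end of PVT1, had the most far ends in H4, with 25 pairs, and in 42MGBA, with 52. It held 13 in H4 88-1 and 23 in 42MGBA 53-1. In both corrected lines the largest number lay closer to MYC, in the window from 128900000 to 129000000 inside PVT1, with 32 pairs in H4 88-1 and 48 in 42MGBA 53-1, against 7 in H4 and 43 in 42MGBA. The leading window was thus nearer to MYC in the corrected line of each pair.

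**Figure D2:**
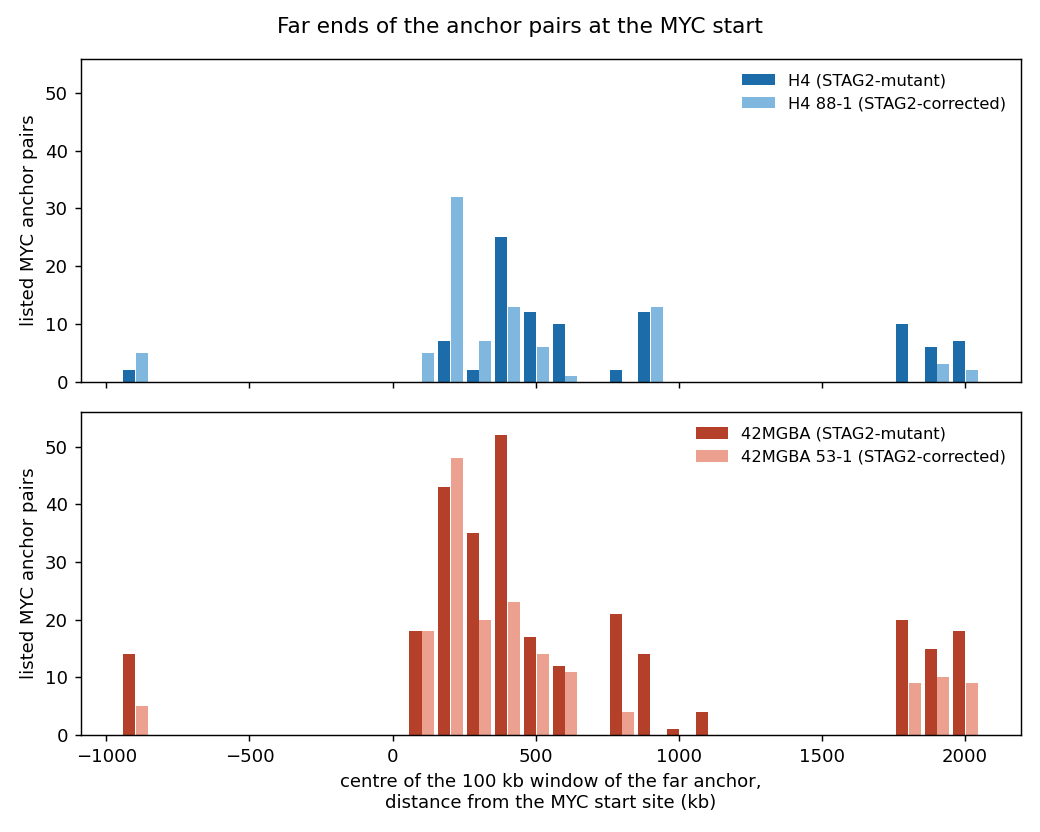
Bars give the number of listed anchor pairs at MYC by the position of the far anchor, in 100 kb windows plotted as distance of the window centre from the MYC start site (kb), for the H4 system (upper) and the 42MGBA system (lower). In H4 the highest bar is 25 pairs at 402 kb and in H4 88-1 it is 32 pairs at 202 kb, and in 42MGBA and 42MGBA 53-1 the highest bars, 52 and 48 pairs, stand at the same positions.

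To compare strengths within each isogenic pair, the sets of 100000 strongest loops were combined (merged loops). Where one list lacked a merged loop, its lowest listed strength stood in, so that the size of such a ratio is a lower bound. Loops were called gained or lost after STAG2 correction when the z-score of the residual lay outside the central range of a normal distribution at a level of 0.05, which ranks loops and is no test against replicates. The region held 45 merged loops in 7 groups in the H4 pair and 154 in 12 groups in the 42MGBA pair. For the H4 pair 4 loops were gained and 1 was lost, where 1.94% of all 129476 merged loops were gained and 2.17% lost. None was gained and 7 were lost in the 42MGBA pair, where 1.61% and 2.45% of 131211 were. Scored by the log2 ratio instead, 7 were gained in the H4 pair, where 2.01% of all loops were. Without the loops absent from a list no loop of the region was gained or lost in the H4 pair, so that all of its calls rest on absent loops.

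By direction alone, 31 of 45 loops of the region (68.9%) were stronger in H4 88-1 than in H4, against 58.1% of all merged loops. Of 154 loops in the 42MGBA pair, 47 (30.5%) were stronger in 42MGBA 53-1, against 38.7%. Median log2 ratios were 0.43 for the H4 pair and -0.22 for the 42MGBA pair, and over the merged loops of chromosome 8 they were 0.13 and -0.20. The region thus lay above its chromosome in the H4 pair and near it in the 42MGBA pair. Of the 45 loops of the H4 pair, H4 lacked 15 and H4 88-1 lacked 5, and without these the median was 0.20. At MYC, 31 loops of the H4 pair had a median of 0.14 and 118 loops of the 42MGBA pair one of -0.35. The former became -0.011 when the 200000 strongest loops of each line were merged. At PVT1, 13 loops of the H4 pair had a median of 0.79, of which H4 lacked 9, and 45 loops of the 42MGBA pair had one of -0.076, which was 0.031 relative to the median of the genome.

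These medians combine loops that went opposite ways, and the direction differed with loop size, as the plot of ratio against size shows. Below 300 kb, all 23 merged loops of the region were stronger in H4 88-1 than in H4, with a median log2 ratio of 0.65, where all loops of that size had 0.18. In 42MGBA cells 43 of 70 such loops were stronger in 42MGBA 53-1, with a median of 0.047 against -0.016. Over the genome, 69.5% of loops of that size were stronger in H4 88-1 and 48.3% in 42MGBA 53-1. From 300 to 600 kb 14 loops of the H4 pair had a median of 0.049 and 46 loops of the 42MGBA pair one of -0.41, against 0.042 and -0.18 over the genome. At 1500 kb or more, all 5 loops were weaker in H4 88-1, with a median of -0.53, and 35 of 36 were weaker in 42MGBA 53-1, with a median of -0.49. All loops of that size had -0.26 and -0.30, and 322 of 436 were weaker in H4 88-1 and 392 of 533 in 42MGBA 53-1. Many loops of the region in these classes are neighbors, so that the counts are not of independent loops. Of the 23 short loops of the H4 pair, 10 were at MYC, 10 in a group within PVT1 and 3 in one within CCDC26. Its 5 very long loops all belonged to a single group. The 36 of the 42MGBA pair lay in groups of 23 and 13. By median, short loops of the region were on the stronger side and very long loops on the weaker side of loops of like size in both corrected lines. In the H4 pair the 15 loops absent from H4 were all among the 23 short ones. The 5 absent from H4 88-1 were the 5 very long ones. For these loops the lowest listed strength stood in, so that the medians of both classes rest largely or wholly on absent loops. Loops of the genome include those of the region.

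**Figure D3:**
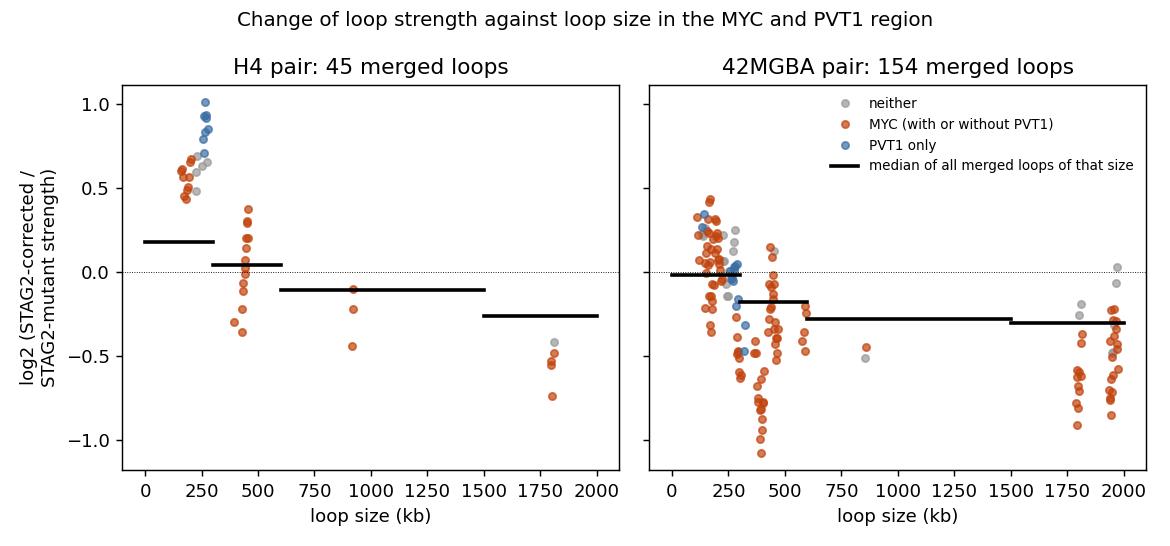
Each point is a merged loop of the region, with loop size (kb) on the horizontal axis and the log2 ratio of corrected over mutant strength on the vertical axis, for the H4 pair (left) and the 42MGBA pair (right), and black lines are medians of all merged loops of that size. In the H4 pair all 23 points below 300 kb lie above 0 and all 5 points at 1500 kb or more lie below it, and in the 42MGBA pair 35 of 36 points at 1500 kb or more lie below 0. Many points are neighboring loops of the same group and are not independent.

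The contact of MYC with the middle of PVT1 was stronger in H4 88-1 than in H4. For the anchor from 128916376 to 128921303, 169 kb from the MYC anchor, the strength was 4.36 in H4 and 6.44 in H4 88-1, against 9.40 in 42MGBA and 9.81 in 42MGBA 53-1. It was lowest in H4, and both 42MGBA lines lay above both H4 lines. Over the window from 128900000 to 129000000, all 10 merged MYC loops of the H4 pair were stronger in H4 88-1, with a median log2 ratio of 0.56, and 21 of 32 were stronger in 42MGBA 53-1, with a median of 0.073. None of these loops passed the cutoff. The MYC loop with the highest z-score in the H4 pair, 1.41, joined MYC with 128945561 to 128950482, at a strength of 4.71 in H4, of 7.41 in H4 88-1, of 6.62 in 42MGBA and of 7.76 in 42MGBA 53-1. The highest of the 42MGBA pair, 1.60, joined MYC with 128907203 to 128912122, with strengths of 7.82 in 42MGBA and 9.73 in 42MGBA 53-1. This pair was 6.30 in H4 88-1 and absent from the H4 list.

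Further along PVT1 the change was the opposite in the 42MGBA pair. From MYC to the anchor from 129140132 to 129144997, 393 kb away, the strength was 6.11 in H4 and 4.97 in H4 88-1, against 9.64 in 42MGBA and 4.57 in 42MGBA 53-1. This was the loop of the region that fell most in the 42MGBA pair, by 1.08 on the log2 scale with a z-score of -2.69, and it ranked 18773 in the 42MGBA list and 238065 in the 42MGBA 53-1 list. The adjoining anchor from 129135235 to 129140131 had strengths of 5.73 in H4 and 5.29 in H4 88-1, against 9.45 in 42MGBA and 4.73 in 42MGBA 53-1. Another neighbor from 129144998 to 129149018 was lost as well, with 8.74 in 42MGBA and 4.55 in 42MGBA 53-1. These 3 lost loops end between MYC and the PVT1 3′ anchor described above. All 9 merged MYC loops with far ends between 129000000 and 129100000 were weaker in 42MGBA 53-1 too, with a median log2 ratio of -0.49, and none of these passed the cutoff.

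Of the 79 PVT1 pairs without MYC, 62 joined parts of the gene body with one another or with its 3′ end, and 17 joined the gene body with anchors that flank those of MYC, upstream of PVT1. There were none of the 79 in H4 and 21 in H4 88-1, against 54 in 42MGBA and 64 in 42MGBA 53-1. H4 was thus the line without them, and the other 3 lines each listed at least 21. H4 also had the fewest pairs of the whole region, 110, and how common such an absence is over the lists was not counted. The 17 pairs with anchors beside MYC were listed in the 42MGBA system alone, 14 in 42MGBA and 12 in 42MGBA 53-1, with strengths of at most 5.72. Among all 79, the highest strength was 7.59 in 42MGBA and 7.60 in 42MGBA 53-1, at other pairs than in H4 88-1. The strongest of the 79 in H4 88-1 joined 128921304 to 128926303 with the 3′ end anchor from 129187886, 267 kb apart. It was absent from the H4 list, and its strength was 8.35 in H4 88-1, 7.20 in 42MGBA and 7.005 in 42MGBA 53-1. Against the lowest listed strength of H4, 4.14, the log2 ratio of H4 88-1 to H4 was at least 1.01, with a z-score of 2.31. All 4 gained loops of the region in the H4 pair belonged to this 1 group of neighbors, with strengths of 7.81 to 8.35 in H4 88-1. With an intercept in the regression, which called 2.88% of all loops gained, none of them passed the cutoff. For 42MGBA cells the 22 merged loops of the group were split, with 12 stronger in 42MGBA 53-1 and a median log2 ratio of 0.0056. A shorter group from 129029152 to 129062831, reaching the same 3′ end, had no pair in H4 and 7 in H4 88-1, against 9 in 42MGBA and 22 in 42MGBA 53-1, and all 5 of its merged loops in the 42MGBA pair were stronger in 42MGBA 53-1.

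The longest pairs of the region joined MYC, or anchors beside it, with the 5′ part of CCDC26 and the sequence beyond it, close to the largest size in the lists, 2002 kb. They formed a group with far ends from 130526854 to 130571451 and another with far ends from 130672345 to 130740979. Of their pairs, 20 of 27 in the nearer group and 33 of 54 in the farther group were at MYC, and the rest were at anchors outside the limit around MYC. The nearer group had 10 MYC pairs in H4 and none in H4 88-1, against 20 in 42MGBA and 9 in 42MGBA 53-1. The farther group had 13, 5, 33 and 19 MYC pairs in that order. In both systems the corrected line listed fewer MYC pairs of either group than its parental line. Pairs of 1500 kb or more were fewer in the corrected lines over the whole lists as well. There were 1711 in H4 and 830 in H4 88-1, against 1456 in 42MGBA and 933 in 42MGBA 53-1. Whether MYC differed from the lists in this was not tested.

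The only lost loop of the H4 pair joined the anchor next to the MYC start, from 128742461 to 128747190, with 130546701 to 130551711 in CCDC26, 1804 kb away. It was not listed in H4 88-1, and its strength in H4 was 7.42, against 10.4 in 42MGBA and 6.86 in 42MGBA 53-1. Its z-scores were -2.01 for the H4 pair and -1.66 for the 42MGBA pair. From the MYC start anchor itself to the same far anchor, the strength fell from 10.5 in 42MGBA to 5.98 in 42MGBA 53-1, at a z-score of -2.27. The next anchor, from 130541720 to 130546700, gave 9.86 and 5.24, with -2.39. At the farther group, 2 loops were lost in the 42MGBA pair. Their strengths were 9.16 and 10.6 in 42MGBA and 5.06 and 6.44 in 42MGBA 53-1. Of the 29 merged MYC loops of 1500 kb or more in the 42MGBA pair, 4 were thus lost and all 29 were weaker in 42MGBA 53-1, with a median log2 ratio of -0.60. Over the genome, 24 of 533 loops of that size were lost in this pair and 392 were weaker, with a median of -0.30.

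**Figure D4:**
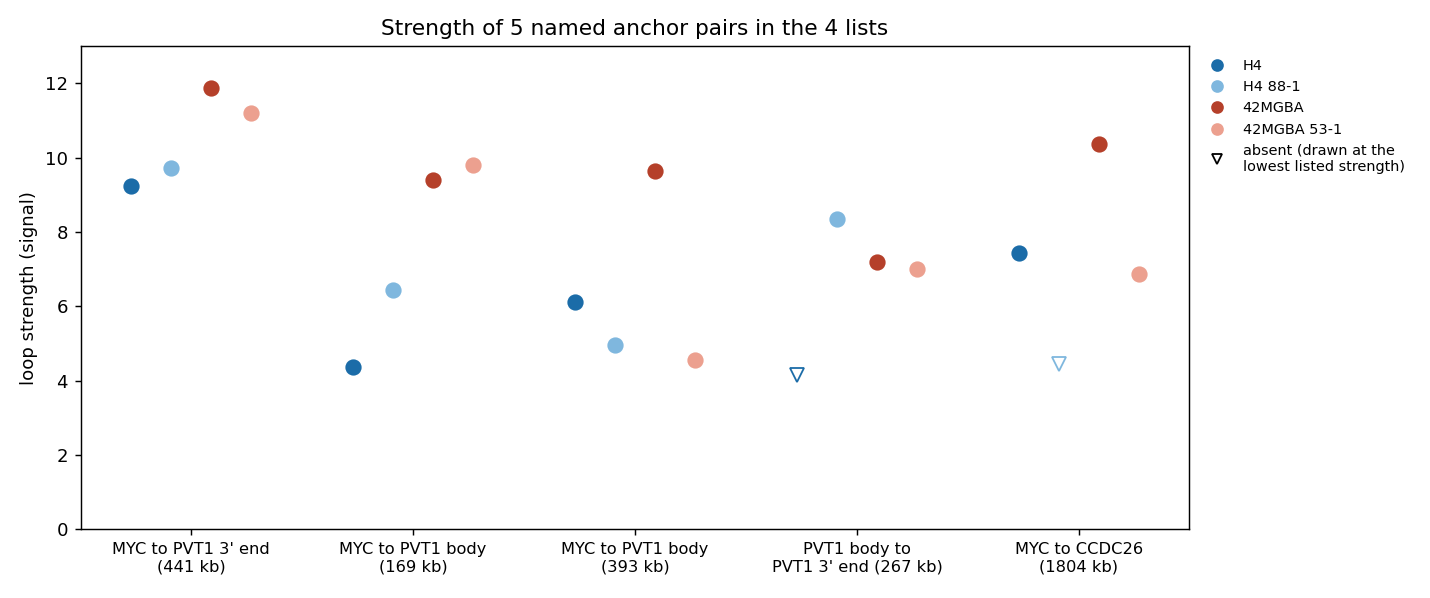
Points give the loop strength (signal) of 5 named anchor pairs in the list of each cell line, and open triangles mark a pair absent from a list, drawn at the lowest strength of that list. The pair of MYC with the PVT1 3′ end lies between 9.24 and 11.9 in all 4 lines, whereas the pair of MYC with CCDC26 is lower in the corrected line of both systems.

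Pairs of this length made up a larger share of the region than of the whole lists. Of the listed pairs of the region, 28.2% spanned 1500 kb or more in H4 and 6.71% in H4 88-1, against 18.2% in 42MGBA and 16.3% in 42MGBA 53-1. The shares of the whole lists were 0.570%, 0.277%, 0.485% and 0.311% in that order. Of the listed pairs of chromosome 8 in this class, the region held 31 of 36 in H4 and 10 of 31 in H4 88-1, against 75 of 110 in 42MGBA and 54 of 59 in 42MGBA 53-1. The strongest of them in 42MGBA, 10.9, was number 36 of 1456 pairs of this class in the genome. In H4 88-1 the strongest was 5.55 and number 309 of 830. All pairs of the region had a median size of 578 kb in H4, of 271 kb in H4 88-1, of 397 kb in 42MGBA and of 272 kb in 42MGBA 53-1. The whole lists had medians of 348, 312, 307 and 257 kb. The difference between the lines of a pair was thus in the same direction as over the lists, and the median of the region was below that of the list only in H4 88-1.

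Between MYC and CCDC26, 2 further contacts had different numbers of listed pairs in the lines. Many of these pairs are neighbors, and how common such differences are over the lists was not counted. Over the genome, 71.1% of either H4 list was shared within the H4 pair and 68.0% of either 42MGBA list within the 42MGBA pair. Around 129638766 to 129705779, across the 3′ end of CCDC26, there were 12 MYC pairs in H4 and 13 in H4 88-1, against 15 in 42MGBA and none in 42MGBA 53-1. The highest strength was 6.45 in H4, 6.06 in H4 88-1 and 6.05 in 42MGBA. From 129503983 to 129561457, in the noncoding gene LINC00824, there were 21 MYC pairs in 42MGBA and 4 in 42MGBA 53-1, 2 in H4 and none in H4 88-1, none with a strength above 5.75. Upstream, MYC pairs reached 127833159 to 127896239, within the annotated span of PCAT1. There were 2 such pairs in H4 and 5 in H4 88-1, against 14 in 42MGBA and 5 in 42MGBA 53-1, with the highest strength, 6.53, in 42MGBA. Pairs within CCDC26, from 130300712 to 130329783 and from 130536746 to 130556671, were listed mostly in H4 88-1, which had no MYC pair to the latter site. There were 14 in H4 88-1, 2 in H4, 1 in 42MGBA 53-1 and none in 42MGBA. The strongest was 6.69 in H4 88-1 and absent from the other 3 lists.

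Of 31 annotated genes with a start in the region, 15 had a listed pair within 3 kb. The 5 with the most were CASC11, MYC, PVT1, CCDC26 and PCAT1. CCDC26 had 9 pairs in H4 and 6 in H4 88-1, against 25 in 42MGBA and 19 in 42MGBA 53-1, and PCAT1 had 2, 7, 20 and 17 in that order. No pair lay at a start of POU5F1B, CASC8, CASC19, CCAT2, PRNCR1 or LINC00824 in any list. CCAT1 and TMEM75 are not in the annotation used. MYC and POU5F1B are the only protein-coding genes that start in the region. CCDC26 and PCAT1 also have starts outside it. Among genes with no start in the region, those with a start at the far end of a MYC pair were the noncoding gene ENSG00000285108, with 4 pairs of at most 5.68 in 42MGBA alone, and the pseudogene MTRF1LP2, with 2 pairs of at most 5.42 in 42MGBA alone. No such gene had a start at the far end of a PVT1 pair.

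Loops merged in both isogenic pairs allowed the direction to be set side by side. Of 36 such loops of the region, 12 were stronger in both corrected lines (33.3%, against 21.4% of 68322 loops over the genome) and 10 weaker in both (27.8%, against 28.0%). Another 13 were stronger in H4 88-1 and weaker in 42MGBA 53-1 (36.1%, against 40.3%), and 1 the reverse. No loop of the region passed the cutoff in both pairs. H4 and 42MGBA are different GBM lines of the same STAG2 status, as are H4 88-1 and 42MGBA 53-1. Of 104 pairs listed in both H4 and 42MGBA, 97 were stronger in 42MGBA, with a median log2 ratio of 0.49. The median over the genome was 0.10. Of 114 pairs listed in both H4 88-1 and 42MGBA 53-1, 88 were stronger in 42MGBA 53-1, with a median of 0.15 against -0.065.

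Over 4 lists the protein-coding genes whose numbers of listed promoter pairs were closest to those of MYC were TG, ITGB5, RAB17, PALLD and CEP57, out of 7057 genes compared. The measure was the Euclidean distance between the log2 numbers plus 1. It was 0.59 for TG, which encodes thyroglobulin and lies on chromosome 8 as well, with 109 pairs in H4 and 106 in H4 88-1, against 215 in 42MGBA and 207 in 42MGBA 53-1. It was 0.78 for CEP57, the farthest of the 5. Each of the 5 had more pairs in both 42MGBA lists than in both H4 lists, as MYC had. The genes were chosen by these same counts, so that this likeness is no separate result. None reached the 284 pairs of MYC in 42MGBA.

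None of the listed genes of the MYC pathway had a gained or lost loop. With so few genes this lies near the shares over all genes, given below, and is no result about the pathway. The list holds 24 genes, comprising MYC paralogs and partners of the MAX network, cofactors, and regulators of MYC turnover, of which 18 had a listed promoter pair in some line. MYCN and MYCL, the paralogs of MYC, and MAX, its obligate partner, had none. In the H4 pair 12 genes had a merged promoter loop and none had a gained or lost loop among 201 loops, where 9.55% of 4765 protein-coding genes with such a loop had a gained and 5.86% a lost one. For the 42MGBA pair 11 genes had 91 loops, none gained or lost, against 6.37% and 7.14% of 4568 genes. The median log2 ratio was positive for 7 of 12 and 5 of 11 genes. The highest z-score in the list was 1.94, at MLXIP, a glucose-responsive member of the network, all 18 of whose loops were stronger in H4 88-1 and 5 of 15 in 42MGBA 53-1. At HUWE1, a ubiquitin ligase for MYC, all 27 merged loops were weaker in H4 88-1. HUWE1 had 155 listed pairs in H4 and 41 in H4 88-1 and none in either 42MGBA list. MLXIP and HUWE1 are named for these values, and other genes were as one-sided. At USP28 all 9 merged loops were stronger in H4 88-1 and none of 10 in 42MGBA 53-1. At SKP2 none of 8 was stronger in H4 88-1 and all 8 were in 42MGBA 53-1.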

How the data were processed

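Hi-C libraries (Arima Hi-C+ kit) of 2 biological replicates per cell line were trimmed to 36 bases, aligned to hg19 with bowtie and reduced by the authors to unique, non-duplicate pairs on 5 kb anchors. Each deposited value is a signal that gives loop strength after bias correction with HiCorr and enhancement with LoopEnhance of DeepLoop, for the 300000 strongest anchor pairs of each line with replicates pooled. Tool versions are not given in the sources used here. No read counts are listed, so that the depth is unknown and no counting error can be given.

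Gene starts came from GENCODE release 44 on GRCh37, whose sequence has a restriction site at the edge of 100% of the chromosome 8 anchors. Over all merged loops, corrected strength was fitted on mutant strength by a regression through the origin. Loop size was measured between anchor midpoints. Fixed 2.5 Mb tiles counted pairs with either anchor starting in the tile. Named were the members, the leading genes and pairs by count, strength and z-score, and the genes closest to MYC in number of pairs. The members, lists and rules were chosen with earlier results of these data known. Alternatives changed the regression, scale, number of loops, absent loops, region and start-site rules. Scripts were tested on simulated data. The 12 RNA-seq samples were not analysed here. Python 3.11.15, numpy 2.4.6, pandas 2.3.3 and matplotlib 3.10.9 were used.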

Additional observations from a re-analysis of the deposited data

Results flagged for a closer look

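Median log2 ratios of corrected over mutant strength had opposite signs in the isogenic pairs for all 3 sets of loops. For the region the H4 pair had 0.43 and the 42MGBA pair -0.22, a difference of 0.66. For MYC it was 0.14 and -0.35, a difference of 0.49. For PVT1 it was 0.79 over 13 loops and -0.076 over 45 loops, a difference of 0.87. All merged loops of the genome had opposite signs as well, at 0.074 and -0.11. With 1 pooled list per line the differences were not tested. The opposite signs held for the region under all alternatives run, but not for the others. The MYC median of the H4 pair was -0.011 with 200000 loops merged, and the PVT1 median of the 42MGBA pair was 0.031 relative to the genome and 0.13 relative to chromosome 8.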

How the results depend on the processing

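No paired analysis was possible because the lists pool the replicates of each cell line, and for the same reason no replicate could be left out. Of 106 alternative values, 59 stayed within 1.5 times the value reported, or within 0.1 on the log2 scale, 44 moved further and 3 changed sign, and except where stated the cause was not tested.

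Per 100000 listed pairs, the region had 36.7 pairs in H4 and 49.7 in H4 88-1, and 21 and 33 among the 100000 strongest. MYC had 31.7 in H4 and 20 among these, and PVT1 had 2.67 and 0. With anchors that contain the start, which takes in fewer anchors, MYC had 17.3 pairs in H4 and 15 in H4 88-1, against 46 in 42MGBA and 30 in 42MGBA 53-1, and PVT1 had 1.33, 8.33, 21.3 and 21.7. Within 10 kb PVT1 had 4.33 in H4. With only the 5′ start PVT1 had 0 in each list.

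For the H4 pair, 0 loops of the region were gained with an intercept, 7 with the log2 ratio, 1 with 50000 and 7 with 200000 loops merged, and 0 without absent loops. There were 0 lost loops with 50000 merged and 0 without absent loops. In the 42MGBA pair 1 was gained with 200000 merged, and 3 and 20 were lost with 50000 and 200000.

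In the H4 pair the median log2 ratio of the region was 0.29 with 50000 merged, 0.25 with 200000, 0.20 without absent loops, 0.30 relative to chromosome 8 and 0.27 relative to loops of similar size, a setting chosen after seeing the data. For MYC it was -0.011 with 200000 and 0.011 relative to chromosome 8. For PVT1 it was 0.93, 0.44, 0.47, 0.66 and 0.68 in the settings given for the region. For the 42MGBA pair it was -0.12 relative to the genome, -0.023 relative to chromosome 8 and -0.095 relative to similar size for the region, and -0.24, -0.15 and -0.17 for MYC. For PVT1 it turned to 0.031 relative to the genome and 0.13 relative to chromosome 8.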

Other observations

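The 526 pairs used 169 anchors, with a median GC content of 42.2%, against 41.8% over all 128561 listed anchors. MIR1205, MIR1207 and MIR1208, microRNA genes inside PVT1, had no listed pair within 3 kb of their starts in H4, and 17, 4 and 4 pairs in total over the other 3 lists.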
